A study of Mus musculus with 18 samples.

Results

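Late-life change in mouse skeletal muscle was read from 12 arrays, the 6 of aged mice (25 months) set against the 6 of adult mice (11 months), out of 18 arrays in all. The arrays were chosen by the age in their titles. The muscle was the gastrocnemius of both legs of male C57BL/6 mice, with no treatment and no transgene, and each array carried 1 biological replicate. A further 6 arrays, from mice of 2 months, entered the model only to share its estimate of spread, and their values are given beside the comparison. All arrays hybridised total RNA depleted of ribosomal RNA. The values are log2 of a linear probe intensity for 15300 probesets, of which 13592 carry a single gene symbol, so a difference of 1 log2 unit is a doubling of signal.

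The gastrocnemius is a calf muscle of mainly fast fibres. Mature fibres hold few acetylcholine receptors away from the nerve contact, and fibres that lose their nerve are known to make receptor subunits and myogenin again. Around the fibres lie fibroblast-like progenitors and tendon cells that make collagen, fat cells, vessels and resident macrophages, all of which add RNA to whole muscle. In such bulk tissue, fewer cells of a type and less RNA per cell cannot be told apart.

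The 12 arrays were close to each other. Array medians lay between 97.6 and 101 intensity units, and across probesets arrays correlated with r of 0.9883 to 0.9955 within 11 months, 0.9909 to 0.9957 within 25 months and 0.9873 to 0.9951 between the ages. The 8 measured muscle fibre markers, among them skeletal actin and creatine kinase, had list means of 13.28 to 13.38 at 11 months and 13.31 to 13.43 at 25 months, so the tissue carried its defining transcripts at both ages. The spread of each array's log2 values (its signal range, as the interquartile range) was 2.33 ± 0.08 at 11 months and 2.26 ± 0.08 at 25 months (SD, n = 6, two-sided exact permutation p = 0.180 over 924 splits). One array stood apart: in 11 months replicate 4 the mean of 14 skin and keratinocyte markers was 7.39 log2 units, against 5.51 to 6.35 on the other 5 arrays of its age and 5.48 to 5.95 at 25 months. The 6.35 was that of 11 months replicate 5, which also lay above every 25 months array. Counts at an unadjusted p under 0.05 that moved by over 1.5 times, or to 0, without this array are given both ways. The labels give no array date or animal cohort, so age and any batch shared by the arrays of an age cannot be told apart.

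Which transcripts differ between adult and old muscle was asked with limma across all probesets. Few passed: 23 of 15300 probesets (0.150%) had a Benjamini-Hochberg adjusted p under 0.05, 9 of them higher (0.0588%) and 14 lower (0.0915%) at 25 months. The changes were small. Of all probesets, 27 moved by 1.5-fold or more and 2 by 2-fold or more, and the smallest called change was 0.25 log2 units. At an unadjusted p under 0.05 there were 1591 probesets (10.4%), 638 higher (4.17%) and 953 lower (6.23%). Gene lists were chosen with earlier results of these data known, so their counts of called members are only a description. The shares at an unadjusted p under 0.05 are the background for every list count at that level. They varied with brightness: of the 3825 probesets in the brightest 25%, 392 were lower and 133 higher, and of those in the dimmest 25%, 43 and 213. Limma called 2919 probesets (19.1%) for 11 against 2 months and 2666 (17.4%) for 25 against 2 months. The 2 comparisons of adjacent ages share the 11 months arrays.

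**Figure D1:**
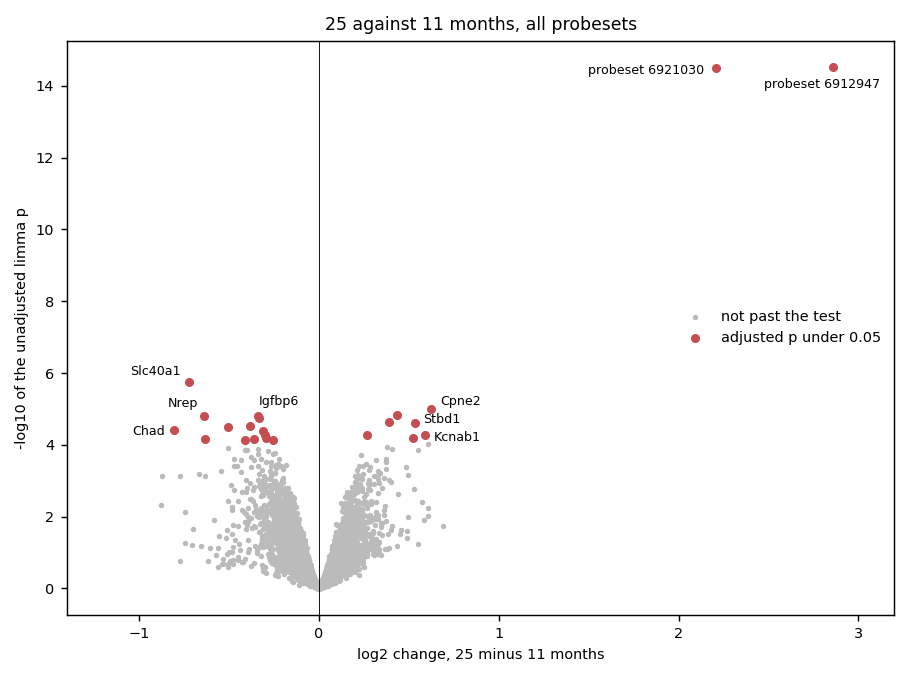
Log2 change from 11 to 25 months (x axis) against -log10 of the unadjusted limma p (y axis) for 15300 probesets, 6 arrays per age. The 23 called probesets are in red. Probesets 6912947 and 6921030 lie far from all others, and Slc40a1 had the smallest p among those with a gene symbol.

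The gene with the smallest p was Slc40a1, which encodes ferroportin, the membrane protein that exports iron from cells. Its log2 intensity ran from 8.34 to 8.81 (median 8.51) at 11 months and from 7.62 to 8.12 (median 7.79) at 25 months. Every old array lay below every adult array. Slc40a1 fell 1.65-fold, a log2 change of -0.72 ± 0.11 (SE, limma adjusted p = 0.00921). At 2 months it had ranged from 7.99 to 8.57 (median 8.14), so the adult level was the highest of the 3 ages. Among called probesets with a symbol, only Slc40a1 kept its call whichever of the 18 arrays was left out (adjusted p up to 0.0420).

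No other gene of iron handling passed. Of 21 measured, 1 was called (Slc40a1), 15 had a log2 change below 0 and 6 above, 5 had an unadjusted p under 0.05 and a lower value (6.23% of all probesets did), 0 had a higher one, and the list's median log2 change was -0.08 against 0.0025 for all probesets. With the signal range as a covariate 3 were lower at that level. Trf, which encodes the iron carrier transferrin, ran from 8.64 to 9.04 (median 8.95) at 11 months and from 8.23 to 8.83 (median 8.49) at 25 months, and did not pass (log2 change -0.41 ± 0.14, adjusted p = 0.319). The ferrireductase Steap3 (-0.13 ± 0.05, adjusted p = 0.359) did not pass either. Tfrc, the transferrin receptor, and Fth1, a subunit of the iron store ferritin, were picked after their values were seen: their log2 changes were -0.21 (SE 0.14) and -0.04 (SE 0.04). Slc48a1, a haem transporter outside the list, stood just below the threshold for a call, with 8.94 to 9.08 at 25 months and 9.17 to 9.43 at 11 months (adjusted p = 0.0779).

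Genes of the tissue between fibres made up the largest group among the falls. Chad, which encodes the cartilage and tendon protein chondroadherin, ran from 7.41 to 8.14 (median 7.90) at 11 months and from 6.60 to 7.45 (median 7.0) at 25 months, with 5 of 6 old arrays below all adult ones. It fell 1.75-fold (log2 change -0.80 ± 0.15, adjusted p = 0.0444), the largest fall among called genes. Dpt, dermatopontin of the matrix, went from 8.61 to 9.05 (median 8.79) to 8.07 to 8.64 (median 8.28), again with 5 of 6 arrays apart, and fell 1.42-fold (adjusted p = 0.0410). Fn1, fibronectin, the glycoprotein that links cells to matrix, did not overlap: 9.02 to 9.28 (median 9.15) at 11 months and 8.47 to 8.95 (median 8.75) at 25 months, a fall of 1.33-fold (adjusted p = 0.04995).

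Transcripts of secreted and surface proteins of stromal cells fell too. Serpinf1, which encodes the secreted factor PEDF, had no overlap, with 7.96 to 8.13 (median 8.04) against 7.58 to 7.92 (median 7.70) and a fall of 1.26-fold (log2 change -0.33, adjusted p = 0.0350). Igfbp6, a binding protein with a preference for insulin-like growth factor II, ran from 7.92 to 8.23 (median 7.96) at 11 months and from 7.56 to 7.78 (median 7.66) at 25 months, a fall of 1.26-fold (adjusted p = 0.0337). Its highest adult array, replicate 5, lay 0.20 above the next. The cell-surface peptidase Dpp4 fell 1.19-fold (6.19 to 6.36 against 5.85 to 6.13, no overlap, adjusted p = 0.04995).

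Chad averaged 8.32 ± 0.30 at 2, 7.82 ± 0.30 at 11 and 7.02 ± 0.30 at 25 months (SD, n = 6), Fn1 9.53 ± 0.19, 9.14 ± 0.10 and 8.73 ± 0.16, and Serpinf1 8.45 ± 0.11, 8.04 ± 0.06 and 7.71 ± 0.12, so in each the 3 means stepped down with age. Dpt had 8.71 ± 0.18, 8.82 ± 0.15 and 8.32 ± 0.20, and limma did not call it for 11 against 2 months (adjusted p = 0.404). Igfbp6 had 8.05 ± 0.10, 8.01 ± 0.12 and 7.67 ± 0.09 and Dpp4 6.14 ± 0.07, 6.24 ± 0.07 and 5.99 ± 0.09, likewise without a call for 11 against 2 months (adjusted p = 0.592 and 0.163).

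Of 21 measured collagens none passed limma. At an unadjusted p under 0.05, 14 had a lower value and 0 a higher one (6.23% and 4.17% of all probesets). In all, 20 of 21 lay below 0 with a median log2 change of -0.24. The fibrillar collagens led. Col3a1 ran from 8.67 to 9.18 (median 8.83) at 11 months and from 7.82 to 8.48 (median 8.19) at 25 months without overlap (log2 change -0.67 ± 0.17, adjusted p = 0.125). Col1a1, with 8.94 to 9.79 (median 9.20) against 8.18 to 8.94 (median 8.43), and Col1a2, with 9.19 to 9.69 (median 9.40) against 8.43 to 9.24 (median 8.75), had changes of -0.77 and -0.63 (adjusted p = 0.126 for each) and 5 of 6 old arrays below all adult ones. Basement membrane and filament collagens were lower as well: Col4a1 averaged 8.11 ± 0.09 and 7.80 ± 0.14 and Col6a1 8.0 ± 0.08 and 7.70 ± 0.17 (SD, n = 6, both named after their values were seen). For 11 against 2 months the collagens' median log2 change was -0.55.

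The wider set of 43 matrix proteins and enzymes held 4 called genes, all lower (Serpinf1, Dpt, Chad and Fn1), with 29 lower and 0 higher at an unadjusted p under 0.05, 40 below 0 and a median of -0.19. Prelp, a leucine-rich proteoglycan, had 8.47 to 8.85 (median 8.66) at 11 months and 8.07 to 8.46 (median 8.31) at 25 months and stood just outside the call (adjusted p = 0.0922). The tendon genes Kera, a keratan sulphate proteoglycan, and Thbs4, thrombospondin 4, had log2 changes of -0.48 ± 0.15 and -0.35 ± 0.12 (adjusted p = 0.260 and 0.327). Of 7 tenocyte markers, 5 were lower at an unadjusted p under 0.05 (6.23% of all probesets were), 1 of them called (Chad). With the signal range as a covariate 3 were lower. Chad, Kera, Thbs4 and Comp are in both the tenocyte and the matrix list, so these counts are not separate evidence.

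Among 14 markers of fibro-adipogenic progenitors, the stromal cells that make much of the muscle's matrix, 3 were called, all lower (Igfbp6, Dpt and Dpp4). At an unadjusted p under 0.05, 10 were lower and 0 higher (6.23% and 4.17% of all probesets), with a median of -0.25. The lists share members with the matrix set, Dpt among them, so their counts are not separate evidence. Per array, the mean of these 14 markers ran from 8.07 to 8.31 at 11 months and from 7.86 to 8.08 at 25 months, and only 11 months replicate 4 and 25 months replicate 1 met at the border. Cd248, a surface protein of stromal cells and pericytes, had a log2 change of -0.26 (adjusted p = 0.0965), and Fstl1, a secreted follistatin-like glycoprotein, -0.38 ± 0.09 (adjusted p = 0.102), both without overlap. Without 11 months replicate 4 the counts at an unadjusted p under 0.05 were 12 of 21 collagens, 26 of 43 matrix genes, 10 of 14 progenitor markers and 5 of 7 tenocyte markers, all lower. Without replicate 5 of both ages they were 14, 23, 8 and 5 in the same order, all lower. Leaving out 11 months replicates 4 and 5 together was not tested.

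**Figure D2:**
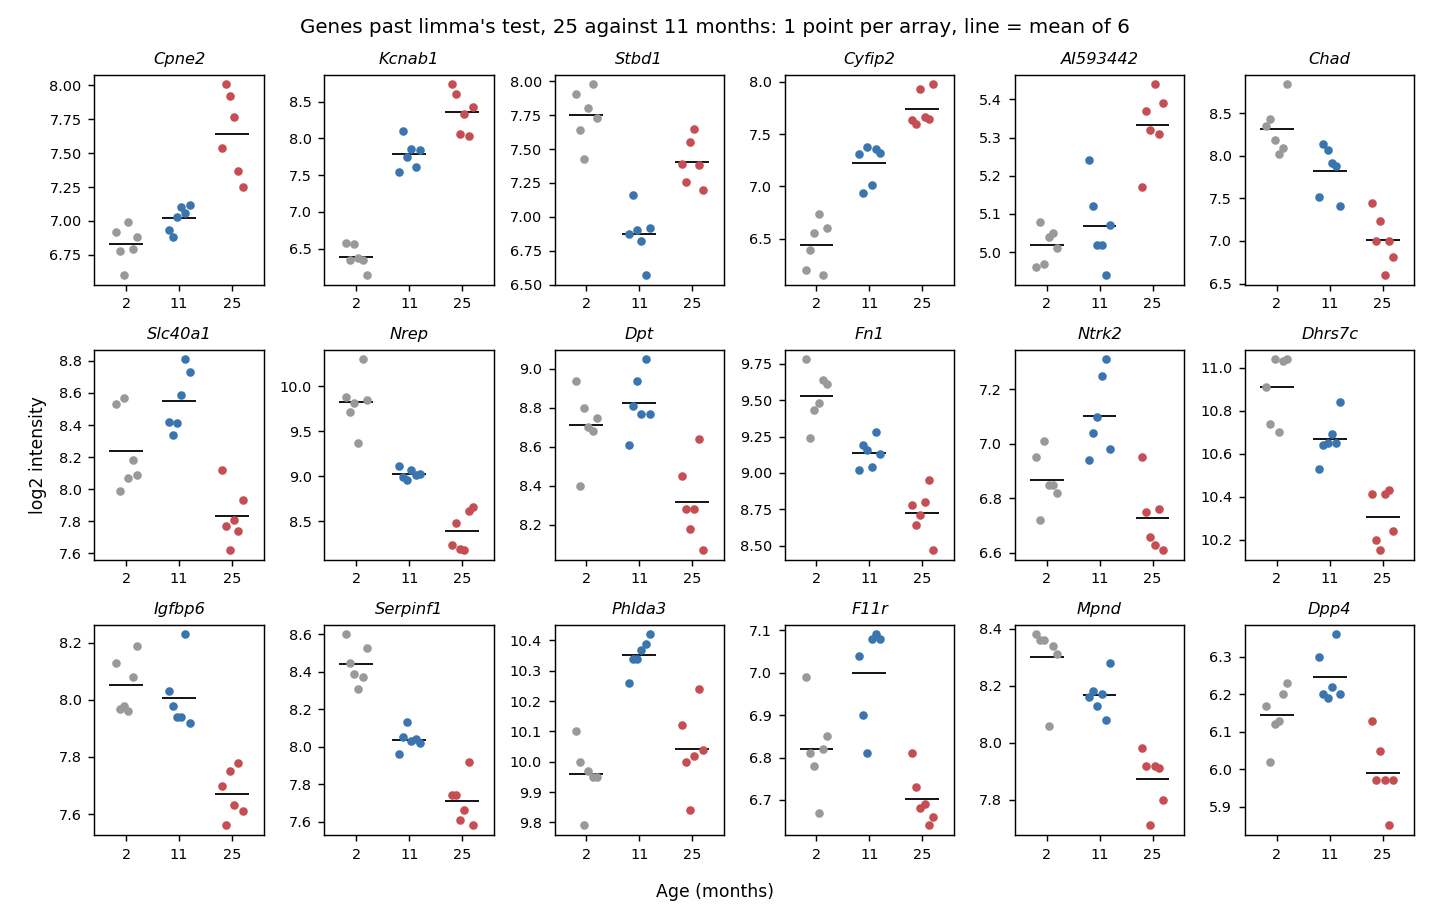
Log2 intensity (y axis) by age in months (x axis) for the 18 called genes with 1 symbol, the 5 rises first; each point is 1 array and each line the mean of 6. In 12 of the 18 panels the 11 and 25 months points do not overlap, but the genes were chosen by these same values. Over all 15300 probesets, 171 (1.12%) were without overlap.

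Of the called genes with a symbol, 5 rose. Cpne2, a copine that binds phospholipids in the presence of calcium, ran from 6.88 to 7.12 (median 7.05) at 11 months and from 7.25 to 8.01 (median 7.65) at 25 months without overlap. It rose 1.54-fold (log2 change 0.62 ± 0.11, adjusted p = 0.0337), with a wider spread in old mice (SD 0.31 against 0.10). Kcnab1, a cytoplasmic beta subunit of voltage-gated potassium channels, went from 7.54 to 8.10 (median 7.79) to 8.04 to 8.74 (median 8.38), with 4 of 6 old arrays above all adult ones, and rose 1.5-fold (adjusted p = 0.0491). Its mean at 2 months was 6.39 ± 0.16, the lowest of the 3 ages.

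Stbd1, which anchors glycogen to membranes, ran from 6.57 to 7.16 (median 6.88) at 11 months and from 7.20 to 7.65 (median 7.39) at 25 months, all old arrays above all adult ones. It rose 1.45-fold (log2 change 0.53 ± 0.10, adjusted p = 0.0382), while its mean at 2 months, 7.75 ± 0.20, was higher than either. Cyfip2, a subunit of the WAVE complex that drives actin branching, went from 6.94 to 7.38 (median 7.31) to 7.60 to 7.98 (median 7.65) without overlap and rose 1.44-fold (adjusted p = 0.04995), from 6.44 ± 0.23 at 2 months. AI593442 rose 1.2-fold, from 4.94 to 5.24 (median 5.04) to 5.17 to 5.44 (median 5.35).

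No other member of the lists that hold Kcnab1, Cyfip2 and Stbd1 was called, and the counts below include these genes. At an unadjusted p under 0.05, 4.17% of all probesets were higher and 6.23% lower. Of 26 potassium channel genes, 3 were higher and 2 lower at an unadjusted p under 0.05, including Kcnma1, the large-conductance calcium-activated channel (log2 change 0.21 ± 0.05, adjusted p = 0.148), and Kcnc1, a fast delayed rectifier (-0.22 ± 0.08, adjusted p = 0.343). In 16 genes of the WAVE complex and Rac, Cyfip2 alone was higher and 0 were lower at that level. Of 19 glycogen genes, Stbd1 and Amy1, an amylase with close paralogs, were higher and Gys1, muscle glycogen synthase, and Pygb, a glycogen phosphorylase, lower (1 lower without 11 months replicate 4). Gys1 had 11.62 to 11.82 at 11 months and 11.56 to 11.62 at 25 months, which do not overlap before rounding (log2 change -0.12 ± 0.04, adjusted p = 0.366).

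Among the falls were 2 genes with nerve-related roles. Nrep, a small protein named for its rise in regenerating neurons, ran from 8.96 to 9.12 (median 9.02) at 11 months and from 8.18 to 8.66 (median 8.36) at 25 months without overlap, a fall of 1.56-fold (log2 change -0.64 ± 0.11, adjusted p = 0.0337), and it had averaged 9.82 ± 0.30 at 2 months. Ntrk2, the receptor TrkB for the neurotrophin BDNF, went from 6.94 to 7.31 (median 7.07) to 6.61 to 6.95 (median 6.70), with 5 of 6 old arrays below all adult ones (1.30-fold, adjusted p = 0.0406). Of 17 genes of neurotrophins and nerve growth factors, 2 were called and 4 were lower at an unadjusted p under 0.05, among them the receptor Ret (log2 change -0.17 ± 0.07, adjusted p = 0.428), with 0 higher. Without 11 months replicate 4, 3 were lower. Over all probesets, 6.23% were lower at that level. The list lay on both sides of 0, with 9 genes above and 8 below and a median log2 change of 0.007. Of 9 Schwann cell and myelin markers, 1 had a higher and 1 a lower value at that level, and 0 and 1 without 11 months replicate 4.

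The remaining falls had separate roles. Phlda3, a p53 target that restrains the kinase Akt, ran from 10.26 to 10.42 (median 10.36) at 11 months and from 9.84 to 10.24 (median 10.03) at 25 months without overlap and fell 1.24-fold (adjusted p = 0.0455), to a mean of 10.04 ± 0.13 that lay near the 9.96 ± 0.10 of 2 months. Dhrs7c, an enzyme of the sarcoplasmic reticulum, went from 10.53 to 10.84 (median 10.65) to 10.15 to 10.43 (median 10.33) and fell 1.28-fold (adjusted p = 0.04995). F11r, the junctional adhesion molecule A, and Mpnd each fell 1.23-fold (adjusted p = 0.0491 and 0.04995). The old F11r arrays overlapped the adult ones on 1 array, and those of Mpnd did not overlap.

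Values of the other p53 targets lay on both sides of 0, and none passed. Cdkn1a, the cell cycle inhibitor p21, ran from 6.30 to 6.84 (median 6.51) at 11 months and from 6.60 to 7.40 (median 6.91) at 25 months (log2 change 0.44 ± 0.13, adjusted p = 0.186). Of 18 targets and senescence genes, 1 was higher and 2 were lower at an unadjusted p under 0.05 (4 and 1 with the covariate of signal range, 1 and 1 without 11 months replicate 4). Cdkn2a, picked after its value was seen, averaged 6.25 ± 0.12 and 6.31 ± 0.10. Among 29 genes of calcium handling, Dhrs7c was the 1 called, and Camk2b, a calcium-dependent kinase, had 9.39 to 9.54 at 11 months and 9.61 to 9.97 at 25 months without overlap and did not pass (log2 change 0.28 ± 0.08, adjusted p = 0.153).

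The 2 largest changes were in probesets without a gene symbol. Probeset 6912947 ran from 5.34 to 5.65 (median 5.56) at 11 months and from 7.98 to 8.76 (median 8.40) at 25 months, a rise of 7.25-fold (log2 change 2.86 ± 0.13, adjusted p = 2.48e-11). Probeset 6921030 ran from 5.08 to 5.27 (median 5.19) and from 7.04 to 7.65 (median 7.43), a rise of 4.63-fold (2.21 ± 0.10, adjusted p = 2.48e-11). At 2 months they had ranged from 7.81 to 8.83 (median 8.43) and from 6.92 to 7.71 (median 7.36), so the 11 months arrays stood below both other ages, and limma called neither for 25 against 2 months (adjusted p = 0.986 and 0.812). Another unnamed probeset, 6890597, fell 1.55-fold, and probesets 6908347 and 6927248, which match several genes, rose 1.35-fold and 1.31-fold.

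The nearest gene outside the call was Asb12, a substrate adaptor of a ubiquitin ligase, with 8.27 to 8.49 (median 8.30) at 11 months and 7.67 to 8.18 (median 7.96) at 25 months (log2 change -0.41 ± 0.08, adjusted p = 0.0527), against Fn1, Dpp4 and the others just inside at 0.04995. At an adjusted p of 0.0664 lay Npc1, which moves cholesterol out of lysosomes (-0.34), the glycerol channel Aqp7 (-0.40), the desaturase Scd2 (-0.51), the RNA-binding protein Cpeb1 (-0.41) and the interferon-induced GTPase Gvin1 (0.40). Erp29, a chaperone of the endoplasmic reticulum, followed (-0.28, adjusted p = 0.0691), then Lasp1, an actin-binding protein (-0.24, adjusted p = 0.0758), the transcription factor Cebpg (-0.34, adjusted p = 0.0766) and Mlf1 (-0.47, adjusted p = 0.0887).

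Transcripts known to rise in denervated fibres lay above 0 nearly throughout. Of 17 measured, none passed limma, 7 were higher and 0 lower at an unadjusted p under 0.05 (4.17% and 6.23% of all probesets), and 16 were above 0 (51.2% of all probesets were) with a median log2 change of 0.17. Gadd45a, a stress gene that rises in denervated muscle, ran from 7.79 to 8.12 (median 8.01) at 11 months and from 8.21 to 8.78 (median 8.46) at 25 months without overlap (log2 change 0.49, 95% interval 0.25 to 0.73, adjusted p = 0.101). Myog, the myogenic factor myogenin, had 5.81 to 6.41 (median 6.18) against 6.29 to 6.77 (median 6.50), and 5 of 6 old arrays exceeded all adult ones (0.35, interval 0.15 to 0.55, adjusted p = 0.161). Ncam1, the neural cell adhesion molecule, which spreads over denervated fibres, had 6.74 to 6.92 (median 6.81) against 6.91 to 7.17 (median 7.02), a log2 change of 0.20 (interval 0.09 to 0.32, adjusted p = 0.161).

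Kcnn3, the small-conductance potassium channel SK3, had 6.17 to 6.45 against 6.35 to 6.74 and a log2 change of 0.25 (adjusted p = 0.199). Runx1, a transcription factor of denervated fibres, and Hdac4, a histone deacetylase that relays denervation to receptor genes, averaged 6.54 ± 0.09 and 6.82 ± 0.15, and 8.34 ± 0.04 and 8.48 ± 0.10, with adjusted p of 0.227 and 0.356 (both named after their values were seen). The 1 member below 0 was Fbxo32, the atrophy ubiquitin ligase (-0.15 ± 0.15, adjusted p = 0.754). Per array, the list mean lay between 7.05 and 7.19 at 11 months and between 7.26 and 7.38 at 25 months. The count of 7 was the same without 11 months replicate 4 and with the signal range as a covariate.

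Subunits of the muscle acetylcholine receptor differed in size. Chrnb1 ran from 7.73 to 8.16 (median 7.86) at 11 months and from 7.94 to 8.38 (median 8.30) at 25 months (log2 change 0.33, 95% interval 0.16 to 0.50, adjusted p = 0.113). Chrna1 ran from 7.20 to 7.71 (median 7.50) and from 7.64 to 7.92 (median 7.85), with 5 of 6 old arrays above all adult ones (0.33, interval 0.15 to 0.50, adjusted p = 0.138). Chrnd had a smaller value (0.18, interval 0.04 to 0.33, adjusted p = 0.381). Chrng, the subunit of fetal and denervated muscle, averaged 5.68 ± 0.05 and 5.84 ± 0.17 (0.16 ± 0.07), and Chrne, the adult subunit that replaces it, 6.87 ± 0.13 and 6.85 ± 0.12 (-0.02 ± 0.07), both picked after their values were seen.

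Genes for clustering the receptor did not pass either. Musk, the kinase that starts clustering, averaged 9.61 ± 0.17 and 9.78 ± 0.09 (adjusted p = 0.576), and Rapsn, the scaffold rapsyn, 8.03 ± 0.14 and 7.94 ± 0.11 (adjusted p = 0.644), both picked after their values were seen. Of the 17 receptor and synapse genes, 11 lay above 0 and 6 below, with a median log2 change of 0.03. At an unadjusted p under 0.05, 5 were higher and 0 lower, and 4 were higher without 11 months replicate 4. With the signal range as a covariate 3 were higher and 1 was lower.

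Myogenin and related factors bind the E-box, spelled CANNTG, in promoters of receptor subunits, which is textbook background. The 250 bases before the start of Myog and of 3 receptor genes are shown because these genes lay above 0 together. Chrnd lay above 0 too but had no window in the source used, and Chrne, which lay below 0, is not shown. The windows shown are read from RefSeq (build GRCm38.p6) in the direction of the gene, with each CANNTG in capitals. The windows are chr1:134289754-134290003 (plus strand) for Myog, chr2:73580339-73580588 (minus) for Chrna1, chr11:69795938-69796187 (minus) for Chrnb1 and chr1:87205561-87205810 (plus) for Chrng.
Myog: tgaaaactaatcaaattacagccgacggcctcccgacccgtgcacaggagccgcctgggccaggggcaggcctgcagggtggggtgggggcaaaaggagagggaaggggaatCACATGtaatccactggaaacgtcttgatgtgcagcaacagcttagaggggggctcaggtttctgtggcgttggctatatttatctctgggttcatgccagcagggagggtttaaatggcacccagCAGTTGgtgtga
Chrna1: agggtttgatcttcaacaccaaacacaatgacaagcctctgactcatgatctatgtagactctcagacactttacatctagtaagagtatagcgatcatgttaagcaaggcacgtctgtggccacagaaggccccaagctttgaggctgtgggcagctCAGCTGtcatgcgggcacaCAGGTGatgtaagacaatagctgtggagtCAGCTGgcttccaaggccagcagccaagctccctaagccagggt
Chrnb1: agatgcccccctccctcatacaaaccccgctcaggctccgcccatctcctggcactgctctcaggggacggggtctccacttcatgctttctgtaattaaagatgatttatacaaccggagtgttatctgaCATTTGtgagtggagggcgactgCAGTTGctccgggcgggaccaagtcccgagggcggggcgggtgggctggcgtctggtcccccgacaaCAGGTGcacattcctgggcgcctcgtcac
Chrng: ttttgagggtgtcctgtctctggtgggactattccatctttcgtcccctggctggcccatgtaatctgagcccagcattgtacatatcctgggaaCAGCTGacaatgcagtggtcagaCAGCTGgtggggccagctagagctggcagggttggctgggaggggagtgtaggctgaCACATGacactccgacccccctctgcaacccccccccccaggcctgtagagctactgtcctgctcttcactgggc
The capitals begin 138 and 12 bases before the start of Myog, 92, 73 and 44 before that of Chrna1, 119, 96 and 29 before that of Chrnb1, and 155, 132 and 75 before that of Chrng. CANNTG reads as the same motif on the other strand, so 1 search covers both. Of 32851 such windows in the table, 66.2% hold at least 1 CANNTG, 31.8% at least 2 and 12.2% at least 3. The spelling CAGCTG, a form of the same motif, occurs in 13.0% of windows and 2 times each in the Chrna1 and Chrng windows. A match of letters is a description of these windows and not a bound site.

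**Figure D3:**
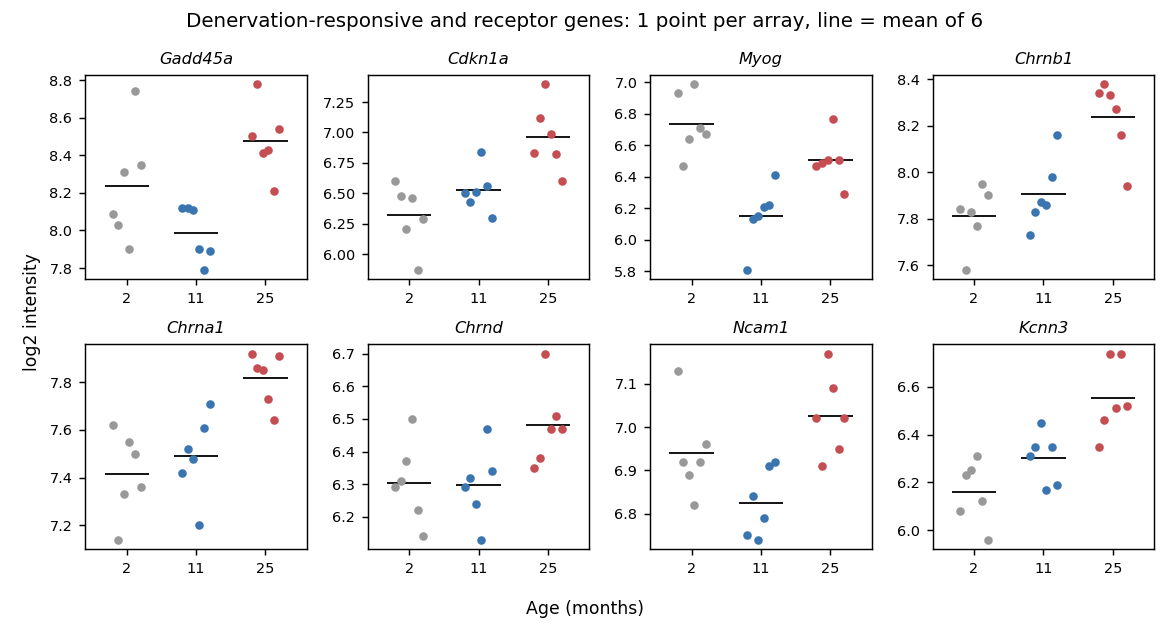
Log2 intensity (y axis) by age in months (x axis) for 8 denervation-responsive and receptor genes; each point is 1 array and each line the mean of 6. The 8 genes were picked from members with higher values at 25 months, so the shared direction of the panels was set by that choice. Members with values below 0, among them Fbxo32, Chrne and Rapsn, are not shown. The points of the 2 ages are apart for Gadd45a only.

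Genes of the developing muscle lay above 0, all 17 measured (51.2% of all probesets did), with 0 called and a median of 0.09. At an unadjusted p under 0.05, 6 were higher (4.17% of all probesets were). The list shares members with the denervation list, Myog among them, so their counts are not separate evidence. Mybph, a myosin-binding protein, ran from 7.92 to 9.66 (median 8.99) at 11 months and from 9.04 to 10.06 (median 9.44) at 25 months, the largest rise in size among named genes, with broad overlap (log2 change 0.69 ± 0.27, adjusted p = 0.410). The cardiac actin Actc1 had 9.48 to 10.43 (median 9.98) against 10.12 to 11.16 (median 10.67) in its brighter probeset (0.61 ± 0.21, adjusted p = 0.335), and near-identical actins may bind the same probes. Ankrd1, a stretch-responsive ankyrin repeat protein, did not overlap (6.81 to 7.17 against 7.22 to 8.13) and had 0.57 ± 0.17 (adjusted p = 0.227). Mef2c, a transcription factor of muscle, had 0.15 ± 0.04 (adjusted p = 0.197).

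The 10 slow fibre genes had a median of 0.27 (0.18 without 25 months replicate 6, and 0.18 to 0.36 over all arrays left out in turn), with 9 above 0, 0 called and 1 at an unadjusted p under 0.05 (3 without replicate 5 of both ages). That gene was Actn2, alpha-actinin 2 of the sarcomere, with 11.89 to 12.18 (median 12.08) against 12.17 to 12.42 (median 12.25) and a log2 change of 0.21 ± 0.06 (adjusted p = 0.176). The spread between mice was wide: list means ran from 9.85 to 10.36 at 11 months and from 10.03 to 10.79 at 25 months. Myl2, the slow regulatory light chain, averaged 11.04 ± 0.27 and 11.43 ± 0.42, and Tnni1, slow troponin I, 9.41 ± 0.28 and 9.76 ± 0.36 (both picked after their values were seen). Of 11 fast fibre genes 0 reached an unadjusted p under 0.05 in either direction, and their median was 0.03.

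Values of fat cell markers lay mostly below 0. Of 15 measured, 0 were called, 14 lay below 0 and the median was -0.22. At an unadjusted p under 0.05, 8 were lower and 0 higher (6.23% and 4.17% of all probesets), and 6 were lower without 11 months replicate 4. Scd1, a desaturase of fatty acid synthesis, ran from 9.76 to 10.90 (median 10.42) at 11 months and from 8.99 to 10.62 (median 9.33) at 25 months, the largest fall in size among genes with a symbol (log2 change -0.88 ± 0.28, adjusted p = 0.248). Adipoq, the hormone adiponectin, had 6.00 to 7.51 (median 6.76) against 5.89 to 6.71 (median 6.11), with overlap (-0.59 ± 0.21, adjusted p = 0.366). Hp, the haemoglobin-binding protein haptoglobin, had 6.43 to 8.10 (median 7.54) against 6.34 to 7.06 (median 6.57) and -0.87 ± 0.22 (adjusted p = 0.126). List means of the fat cell markers ran from 7.35 to 8.13 at 11 months and from 7.25 to 7.83 at 25 months, so the ages overlapped, and at 2 months all 6 lay between 7.28 and 7.63.

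No vessel marker passed limma. Of 18 endothelial genes 0 were called and the median was -0.10. At an unadjusted p under 0.05, 5 were lower and 1 was higher (6.23% and 4.17% of all probesets). With the covariate of signal range 3 were lower, and 2 without replicate 5 of both ages. Aplnr, the apelin receptor, ran from 7.04 to 7.52 (median 7.25) at 11 months and from 6.71 to 7.26 (median 6.82) at 25 months (log2 change -0.38 ± 0.10, adjusted p = 0.149). Cldn5, a tight junction claudin, had 6.41 to 6.75 against 5.93 to 6.56 (-0.37 ± 0.11, adjusted p = 0.227), while the transcription factor Sox17 had 0.16 ± 0.06 (adjusted p = 0.355). Of 12 smooth muscle and pericyte markers 6 lay above 0 and 6 below, and 2 had a lower value at an unadjusted p under 0.05. Of 11 satellite cell markers 1 had a lower value at that level, and 0 without 11 months replicate 4.

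**Figure D4:**
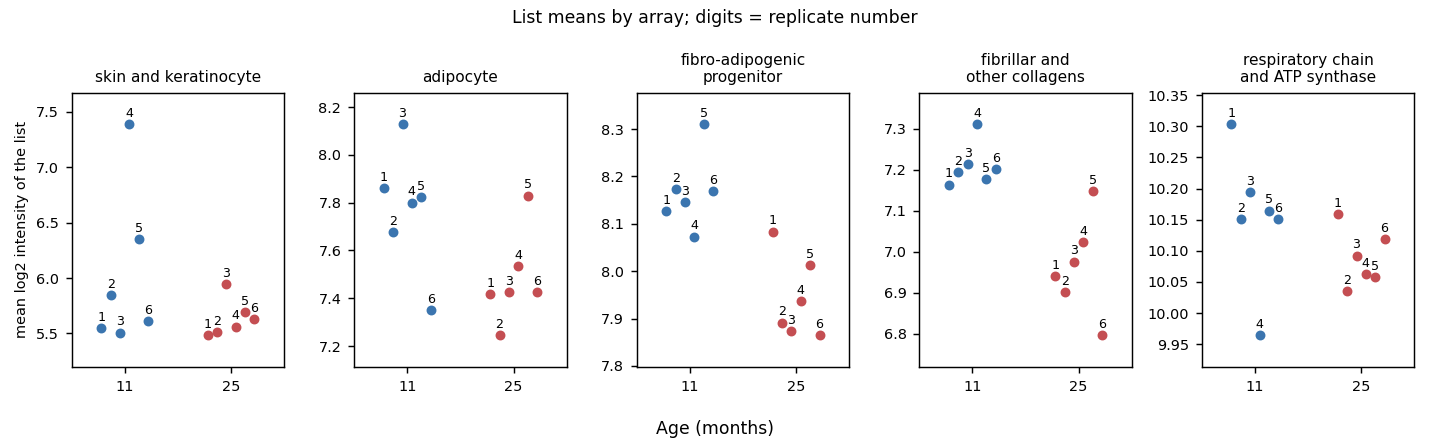
Mean log2 intensity of 5 gene lists (y axis, 1 panel per list with its own scale) by age in months (x axis), 1 point per array labelled with its replicate number. In the skin panel 11 months replicate 4 stands at 7.39; in the respiratory chain panel the same array is the lowest of its age at 9.96.

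Energy metabolism lay slightly below 0, and the size depended on 1 array. Of 64 respiratory chain and ATP synthase genes, 0 were called, 56 lay below 0 and the median was -0.06. At an unadjusted p under 0.05, 3 were lower (Cox5a, Uqcrc1 and Cyc1) and 0 higher. The count of 3 was not above the share of all probesets that were lower, 6.23%. Without 11 months replicate 4, whose list mean of 9.96 was below the 10.15 to 10.30 of the other adult arrays, 16 were lower and the median was -0.11, and with the signal range as a covariate 0 were lower. Uqcrc1, a core subunit of complex III, ran from 12.09 to 12.34 (median 12.15) and from 11.96 to 12.23 (median 12.04), a log2 change of -0.13 ± 0.06 (adjusted p = 0.447). Of 24 fatty acid oxidation genes 4 were lower, 9 without that array and 0 with the covariate, among them Cpt2, a mitochondrial acyltransferase, and Slc27a1, a fatty acid transporter. The brightest 25% of all probesets had a median log2 change of -0.03. Its part in these lists was not tested.

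Glycolysis had 7 of 22 genes lower and 0 higher at an unadjusted p under 0.05, 0 called and a median of -0.09, with 4 lower without 11 months replicate 4 and 3 with the covariate. Slc2a4, the insulin-responsive glucose transporter, ran from 11.35 to 11.60 (median 11.43) and from 11.09 to 11.36 (median 11.28), with 5 of 6 old arrays below all adult ones (-0.20 ± 0.06, adjusted p = 0.175). Eno3, muscle enolase, had 13.47 to 13.53 against 13.36 to 13.46, without overlap, at a log2 change of only -0.10 (adjusted p = 0.428). Pdk4, the kinase that closes pyruvate entry, had -0.48 ± 0.18 (adjusted p = 0.401). Regulators of mitochondria had 1 higher, Prkag3, a subunit of the energy sensor AMPK, and 1 lower, Tfam, which packs mitochondrial DNA, of 24.

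Among stress genes, 5 of 25 chaperones were higher and 0 lower at an unadjusted p under 0.05, with 0 called, a median of 0.07 and 4 higher without 11 months replicate 4. Hspa5, the main chaperone of the endoplasmic reticulum, ran from 10.04 to 10.35 (median 10.12) at 11 months and from 10.27 to 10.51 (median 10.38) at 25 months (log2 change 0.23 ± 0.08, adjusted p = 0.294). Dnajb9, its cochaperone, had 0.31 ± 0.11 (adjusted p = 0.356), and Xbp1, a transcription factor of the same stress response, had 8.89 to 9.11 against 8.68 to 8.83 without overlap (0.22 ± 0.05, adjusted p = 0.1). Antioxidant genes had 3 of 26 lower, Sod1, the cytosolic superoxide dismutase (-0.26 ± 0.07, adjusted p = 0.153), and the thioredoxins Txn1 and Txn2.

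No gene of the immune lists passed limma. Macrophage markers had 4 of 16 lower and 0 higher at an unadjusted p under 0.05, and 6 lower without 11 months replicate 4, with 0 called. Of the 16, 11 lay below 0 and 5 above, with a median log2 change of -0.06. The markers with the smallest p are known from resident macrophages: Folr2, a folate receptor (-0.21 ± 0.07, adjusted p = 0.319), F13a1, the clotting factor XIII subunit (-0.30 ± 0.10, adjusted p = 0.345), and the mannose receptor Mrc1 (-0.24 ± 0.10, adjusted p = 0.417). Other macrophage markers lay above 0, such as Cd163 (0.03) and Cd68 (0.07). Complement genes had a median of -0.15 with 8 of 9 below 0 and 4 with a lower value at an unadjusted p under 0.05, including Cfb and Serping1, but 1 with the signal range as a covariate. The complement and macrophage lists share C1qa, C1qb and C1qc. The lysosome list had 6 of 31 lower, including the protease Ctsk, and 3 without replicate 5 of both ages. Of 22 antigen presentation and interferon genes 19 were above 0 with a median of 0.07 and 1, the immunoproteasome subunit Psmb8, was at an unadjusted p under 0.05 (0.14 ± 0.05, adjusted p = 0.409). T and NK cell markers had 0 of 11 at that level, and chemokines and cytokines 3 of 26 higher, Mmp12, Tnf and Ccl3, with log2 changes of 0.15 to 0.21. The T and NK cell markers were dim, with list means of 4.96 to 5.19 over the 12 arrays, and the dimmest 25% of all probesets had a median log2 change of 0.04. Its part in these lists was not tested.

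Lists of protein synthesis and breakdown held 0 called genes. Cytosolic ribosomal proteins had 1 of 46 genes at an unadjusted p under 0.05 and a median of -0.002, the proteasome 1 of 35, and the atrophy ligases and autophagy list 1 of 27, Map1lc3b of the autophagosome (0.15 ± 0.06, adjusted p = 0.417). The last count was 0 without 11 months replicate 4 and 3 with the covariate of signal range. In all, 49 gene lists covered 978 measured genes, 11 lists held a called member and 38 held none. As the lists were chosen with earlier results of these data known, these counts are not support for any list.

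**Figure D5:**
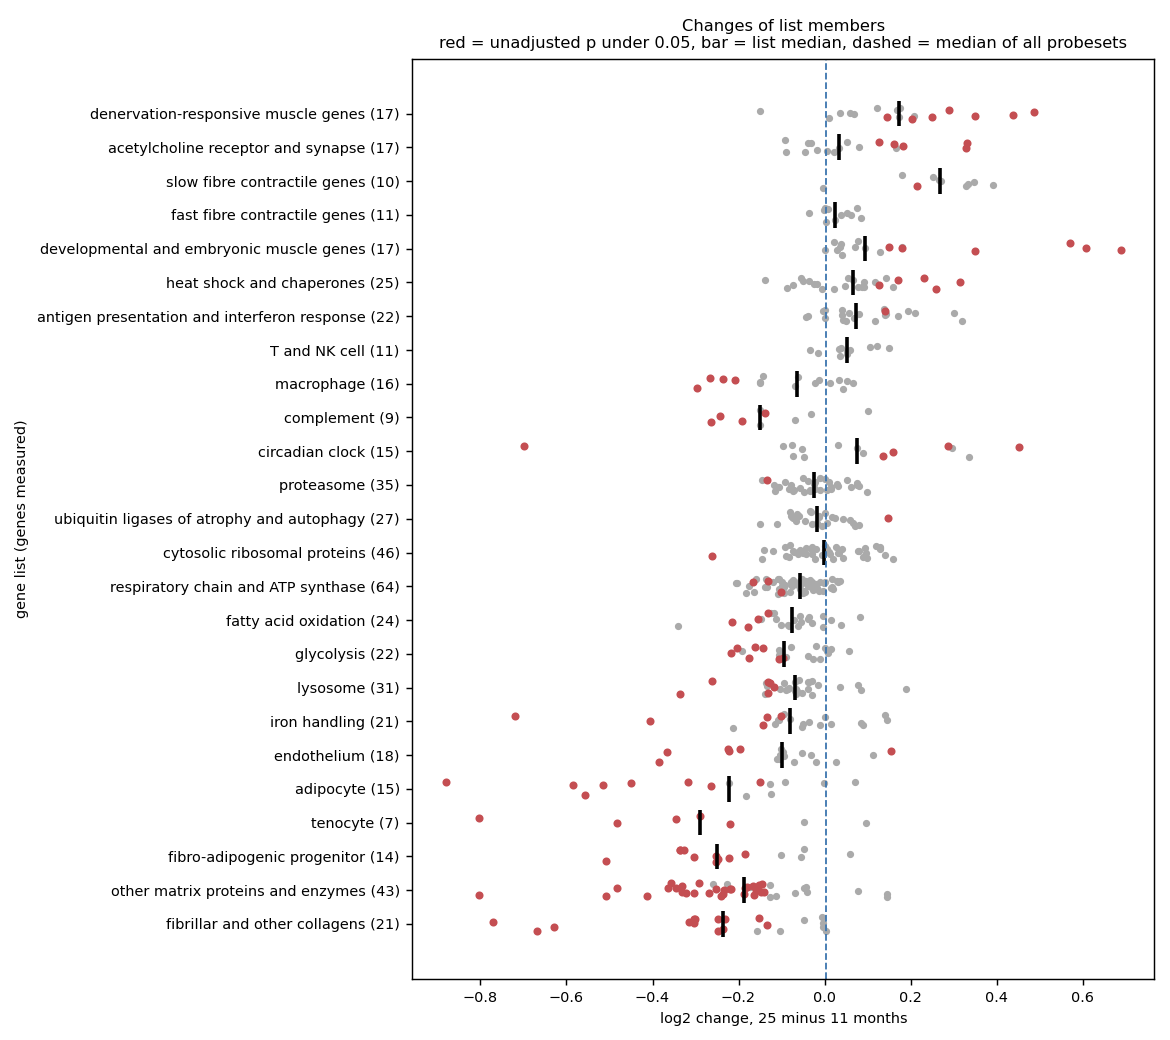
Log2 change from 11 to 25 months (x axis) of the members of 25 gene lists (y axis, genes measured in brackets); red points had an unadjusted p under 0.05, black bars are list medians and the dashed line is the median of all probesets, 0.0025. Matrix, tenocyte, progenitor and fat cell medians lie between -0.29 and -0.19, and denervation and slow fibre medians at 0.17 and 0.27.

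Variation among mice of 1 age was small for most genes: the median SD was 0.0992 log2 units at 11 months and 0.0993 at 25 months, against 0.128 at 2 months. The 10 genes of largest SD at 11 months were skin and hair genes, among them the hair keratin Krt71, at 10.07 in replicate 4 and a median of 5.51. At 25 months the largest spread was in Cish, an inhibitor of cytokine signalling that follows growth hormone (5.93 to 8.10, SD 0.80), which was also wide at 11 months (6.23 to 8.03, SD 0.66). G0s2, an inhibitor of fat breakdown (SD 0.65 against 0.25), Slc25a30, a mitochondrial carrier (0.61 against 0.13), and Krt18, a keratin (0.65 against 0.13), followed with narrower adult values. Several olfactory receptors were among them, such as Olfr420 (0.60 against 0.19).

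Clock genes varied within the ages. Arntl, which encodes the clock activator BMAL1, had 7.28, 7.18 and 7.18 in 11 months replicates 1 to 3 and 8.45, 8.51 and 8.12 in replicates 4 to 6. In 25 months replicates it had 7.50, 7.61, 7.32, 6.64, 6.61 and 6.84. Per1, a repressor of the same clock, had 8.05, 8.21, 8.13, 6.89, 7.15 and 7.23 at 11 months and 7.86 to 8.32 at 25 months. The adult arrays high in Arntl were the ones low in Per1. Of 15 clock genes 4 were higher and 1 lower at an unadjusted p under 0.05 (4.17% and 6.23% of all probesets). These counts became 1 and 0 without 11 months replicate 4, and also 1 and 0 without replicate 5 of both ages. Of the clock genes 0 passed limma (Cry2 0.29 ± 0.08, adjusted p = 0.169).

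The precision of the comparison came from 6 arrays per age. The SE of a log2 change had a median of 0.066, and its 95% interval reached a median of 0.139 to either side. For 15066 probesets (98.5%) the whole interval lay within 1.5-fold in either direction. Groups without overlap occurred in 171 probesets (1.12%), 52 higher (0.340%) and 119 lower (0.778%), and in 16 of the 23 called ones, which were chosen by the same values.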

How the data were processed

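Values were the authors' deposited intensity per probeset and array on a linear scale (15300 probesets, 18 arrays). Per the submitters' processing notes they came from Affymetrix Expression Console 1.2.1 with RMA and build mm8, and per the series text from GeneSpring GX 14.9; any filter behind the number of probesets is not given in the sources used here. Log2 of the deposited values was taken before every test. Ages came from the sample titles.

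limma 3.58.1 (R 4.3.3) fitted 1 mean per age over all 18 arrays, with the contrast 25 minus 11 months, moderated statistics and Benjamini-Hochberg adjustment over 15300 probesets, called at 0.05. Errors of log2 changes are SE from this model and errors of group means are SD over 6 arrays. The model was tested on simulated data. Summaries used Python 3.11.15 with matplotlib 3.10.9, pandas 2.3.3 and numpy 2.4.6. Gene symbols came from the platform annotation; 13592 probesets had 1 symbol, 941 several and 767 none, and 13542 matched RefSeq by Entrez identifier, which changed 0 symbols. A gene entered a list with its brightest probeset.

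The arrays, the 49 lists and the rule for named genes were chosen with earlier results of these data known. The rule took all called probesets, the next 20 by p, the 10 largest rises and falls, up to 3 members per direction of each list at an unadjusted p under 0.05 (otherwise the one with the smallest p), and the 10 genes of largest SD at each age. The text gives those that bear on a group described. Lists are described by counts and medians, with no test.

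Alternatives were the study's one-way test with Tukey, other normalizations, filters, variance models, a replicate block, fewer arrays and a signal range covariate. Deviations of same-numbered arrays of 11 and 25 months correlated from -0.325 to 0.152, so the numbers were not taken to pair arrays. For arrays, their number per age limits the precision.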

Additional observations from a re-analysis of the deposited data

Results flagged for a closer look

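Among the printed genes, 302 groups of 6 arrays (151 probesets at 11 and at 25 months) were screened for an array far from the other 5 of its age by Dixon's ratio at its 95% critical value. In 21 groups an array passed. Chance gives about 1 in 20 groups only for genes not picked by their spread. These probesets include the 10 genes of largest SD at each age, so the count is a description and is not set against chance.

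Skin and hair genes in 11 months replicate 4 made up 8 of these. The array had log2 intensities of 10.07 for Krt71 (next highest 5.71), 8.77 for Krt25 (5.23), 9 for Gjb2 (5.68), 8.55 for Krt73 (5.23), 9.49 for Sprr1a (6.50), 8.55 for Krt27 (5.42), 7.33 for Krtap19-5 (4.47) and 7.40 for Krtap5-4 (4.87). None of these genes was called between the ages.

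In 11 months replicate 5 the array was highest for Igfbp6, a called gene, at 8.23 (next 8.03), for Txn2 at 9.80 (9.58) and for the complement protease gene C1ra at 6.91 (6.81), and lowest for Cdkn2a at 6.03 (6.23). In 25 months replicate 5 it was highest for Aplnr at 7.26 (6.88) and lowest for Cox5a at 9.49 (9.73). These 2 arrays had the widest and the narrowest signal range of the 12.

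Single cases were Trf in 11 months replicate 6, lowest at 8.64 (next 8.95), Tgfb2 in 11 months replicate 1, lowest at 7.14 (7.25), Olfr523 in 11 months replicate 2, highest at 5.56 (5.14), Krt18 in 25 months replicate 2, highest at 7.39 (6.11), Col4a1 in 25 months replicate 6, lowest at 7.52 (7.82), Kera in 25 months replicate 4, lowest at 5.21 (5.54), and Sbsn in 25 months replicate 3, highest at 6.03 (5.64).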

How the results depend on the processing

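Limma called 23 probesets, 9 higher and 14 lower. The study's one-way test with Tukey called 461 (159 higher, 302 lower). There the Benjamini-Hochberg adjustment covered only the one-way test over all 3 ages. The Tukey p of 25 against 11 months was not adjusted over probesets, so 461 is not comparable with 23. Array weights called 185 (62 and 123), a fit of only the 11 and 25 months arrays 45 (11 and 34), and the signal range covariate 37 (27 and 10). A replicate block called 6 (3 and 3), and leaving out 11 and 25 months replicates 5 together, chosen after seeing the data, 10 (4 and 6). Lower calls were 7 after median centring (with 9 higher) and 9 after quantile normalization (with 11 higher). Of the 23, 16 were among the calls after either of these 2 scalings, 14 with the covariate, 6 under the block and 10 without the pair. Of the matrix and stromal genes, Igfbp6 and Serpinf1 kept their call with the covariate (limma adjusted p = 0.0443 for each). Chad, Dpt, Fn1 and Dpp4 did not (0.0653, 0.0572, 0.0738 and 0.0572). Fn1 and Dpp4 also lost it after quantile normalization (0.0743 and 0.0909). Trended and robust variance called 22, and leaving out the dimmest 25% of probesets 30.

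Leaving out 1 array gave 3 to 33 calls, 2 to 12 higher and 1 to 21 lower. Among arrays of 11 months, omitting replicate 4 or 5 left 3 calls, replicate 2 left 4, replicate 6 left 7, replicate 1 left 9 and replicate 3 left 12. Among those of 25 months, omitting replicate 2, 3 or 4 left 3 and replicate 6 left 6. At 2 months, omitting replicate 3 left 12. The calls of 3 probesets (6912947, 6921030 and Slc40a1) held in every omission. The other 20 ended in some, with adjusted p up to 0.146. Of the genes named, only Chrne changed sign in an alternative run: its log2 change of -0.02 was 0.0030 after quantile normalization, 0.026 with the covariate, 0.019 without both replicates 5, and -0.055 to 0.020 with 1 array left out, so it has no settled direction. Over all alternatives the log2 change of Slc40a1 ran from -0.78 to -0.62.

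Array values carry no read depth, and no measure of signal over background was used here. Age and any batch shared by an age cannot be told apart, and the 6 arrays per age set the spread behind every test.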
